A study of Mus musculus with 84 samples.

Results

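Acetylcholine acts in the brain through muscarinic receptors, which signal through G proteins, and through nicotinic receptors, which are ion channels built from subunits. The genes described here are 5 muscarinic receptors (Chrm1, Chrm2, Chrm3, Chrm4 and Chrm5) and 5 nicotinic subunits (Chrna3, Chrna4, Chrna5, Chrna7 and Chrnb2), taken by their symbols from a count table of 43629 genes, of which they are 10. They were measured by RNA sequencing of the central nucleus of the amygdala in 84 HS-CC mice, a heterogeneous stock bred from the founder strains of the Collaborative Cross. The question put to the data was how the level of each receptor transcript varied between animals and whether it followed how much ethanol the animals chose to drink.

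Muscarinic receptors fall into classes by the G protein they use. Chrm1, Chrm3 and Chrm5 couple to Gq and phospholipase C and raise excitability, whereas Chrm2 and Chrm4 couple to Gi and lower cyclic AMP and transmitter release. Chrm1 is the main muscarinic receptor of cortical pyramidal cells, Chrm4 is rich in striatal medium spiny neurons, and Chrm2 serves as an autoreceptor on cholinergic neurons. Among nicotinic subunits, Chrna4 and Chrnb2 form the common high-affinity receptor of the brain, Chrna7 forms a calcium-permeable channel by itself, Chrna5 is an accessory subunit that joins receptors of other subunits, and Chrna3 is best known from autonomic ganglia and the medial habenula. The central amygdala receives cholinergic fibres from the basal forebrain, whose cholinergic cells lie close to it, beside the striatum and the basolateral amygdala.

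The animals were 43 females and 41 males with a median age of 15 weeks when testing began. They were housed singly, were offered 5% and then 10% ethanol in a short lead-in, and then chose between water and 10% ethanol for 13 weeks. Ethanol was available to every animal until it was euthanized, so the comparisons are between amounts drunk, and no animal without ethanol was among the 84. The nucleus was cut by laser from stained brain sections, giving 1 library per animal, and up to 3 animals came from 1 family. Preference, the share of fluid taken from the ethanol tube, had a mean over the weeks of 0.0435 to 0.759 (median 0.229) in females and of 0.0262 to 0.713 (median 0.153) in males.

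Total counts were 24118965 to 42036566 per library, with a median of 31573088.5. Of 16 marker genes listed for the labelled nucleus, Prkcd, Sst, Crh and Gad1 were among those present in every library. Their medians were 18.6 CPM (counts scaled to the TMM-adjusted library total) for Prkcd, 350 for Sst, 6.92 for Crh and 491 for Gad1. Isl1 of the same list ranged from 0 to 23.3 CPM. Slc17a7, which marks cortical and basolateral excitatory neurons and not the inhibitory cells of the central nucleus, had a median of 1359 CPM and ranged from 13.0 to 2404. Chat, which makes acetylcholine in cholinergic neurons, ranged from 0.0312 to 47.8 CPM. All 13 genes of a striatal list were highest in 1 library, male replicate 28. Female replicate 15 stood apart in dopamine neuron genes, with 7951 counts of Slc6a3, the dopamine transporter, against a median of 21 in the others, and it held the highest level of 2 receptor genes below. Sample-sheet numbers in the titles form 4 ascending runs of 18, 18, 17 and 31 animals, which were taken as possible batches.

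The 3 marker lists used below were present in full, with every gene tested. Summed over the 13 striatal genes, levels ran from 895 to 8115 CPM in females and 787 to 9371 in males. Summed over the 13 cortical and basolateral genes, they ran from 281 to 3620 CPM in females and 335 to 3687 in males. Summed over the 10 cholinergic genes, they ran from 40.8 to 587 CPM in females and 24.2 to 581 in males. Libraries of both sexes thus held widely different amounts of these marker transcripts, and the sexes overlapped in each.

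All positions are those of the table, on mouse build GRCm38. Chrm1 lies on chr19:8663789-8683587, Chrm2 on chr6:36388084-36528414, Chrm3 on chr13:9875486-10360844, Chrna4 on chr2:181018380-181043546, Chrna7 on chr7:63098692-63212526 and Chrnb2 on chr3:89753448-89764632. Chrm4 (chr2:91927249-91928688) and Chrm5 (chr2:112479171-112480769) are each given as 1 exon, of 1440 and 1599 bases, so reads from any other exon of these genes were not counted. Chrna5 (chr9:54980880-55007779, plus strand) and Chrna3 (chr9:55011343-55026559, minus strand) are neighbours that end toward each other with 3563 bases between them. A short exon stretch in Chrm2 overlaps 9330158H04Rik, an RNA on the opposite strand with a median of 23 counts against 444 for Chrm2. The strand setting of the counting is not given in the sources used here, so reads of that stretch could not be told apart.

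Promoter sequences of 9 of the 10 genes were found in RefSeq tables of build GRCm38.p6, and 5 windows are printed because their genes form the contrasts below. Chrm2 and Chrm4 are the Gi-coupled pair, and Chrna3 and Chrna5 are the neighbours whose levels moved in opposite directions along 2 of the marker scores. Each window is the 250 bases before a RefSeq start, 5′ to 3′ on the gene's strand, with GC boxes (GGGCGG on either strand) in capitals.
Chrm2: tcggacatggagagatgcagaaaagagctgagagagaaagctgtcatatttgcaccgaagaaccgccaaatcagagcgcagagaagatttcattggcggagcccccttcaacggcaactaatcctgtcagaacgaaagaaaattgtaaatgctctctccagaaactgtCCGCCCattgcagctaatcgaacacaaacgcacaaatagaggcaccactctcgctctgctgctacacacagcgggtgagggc
Chrm4: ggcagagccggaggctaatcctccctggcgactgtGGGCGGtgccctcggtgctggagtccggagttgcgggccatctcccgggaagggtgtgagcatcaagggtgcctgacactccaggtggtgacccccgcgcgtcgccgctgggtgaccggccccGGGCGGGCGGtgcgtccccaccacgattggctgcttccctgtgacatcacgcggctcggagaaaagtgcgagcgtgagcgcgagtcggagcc
Chrna3: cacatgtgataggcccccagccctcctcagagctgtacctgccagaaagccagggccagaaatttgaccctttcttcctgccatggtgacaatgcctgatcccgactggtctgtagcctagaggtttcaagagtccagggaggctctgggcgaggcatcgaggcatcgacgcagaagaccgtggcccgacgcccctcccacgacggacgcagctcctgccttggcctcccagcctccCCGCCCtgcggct
Chrna5, outer start: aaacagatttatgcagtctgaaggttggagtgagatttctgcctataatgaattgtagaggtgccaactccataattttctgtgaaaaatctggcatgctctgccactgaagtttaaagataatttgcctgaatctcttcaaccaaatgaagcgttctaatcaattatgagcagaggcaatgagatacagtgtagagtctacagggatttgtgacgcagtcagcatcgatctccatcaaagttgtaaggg
Chrna5, inner start: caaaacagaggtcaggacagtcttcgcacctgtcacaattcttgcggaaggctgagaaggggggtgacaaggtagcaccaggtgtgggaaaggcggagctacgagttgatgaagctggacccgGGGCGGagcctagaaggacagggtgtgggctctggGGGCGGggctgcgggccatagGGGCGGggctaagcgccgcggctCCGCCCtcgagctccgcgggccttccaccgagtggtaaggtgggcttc
A GC box occurs in the promoter windows of 32.7% of 32851 RefSeq starts. It was found in 6 of the 9 matched genes, which is a count of genes and not of starts. Chrna5 is among these 6, though its outer start has none. The windows of Chrm2 (chr6:36387834-36388083) and Chrna3 (chr9:55026563-55026812) hold 1 each, and that of Chrm4 (chr2:91921939-91922188) holds 3, of which the 2 nearer the start overlap. Chrna5 has 2 RefSeq starts that lie 608 bases apart. The window at the outer start (chr9:54980630-54980879) is 40.0% G and C and holds no GC box, while that at the inner start (chr9:54981238-54981487) is 65.2% G and C and holds 4. The median over all RefSeq windows was 52.4% G and C. No window of the 9 genes held TGACGTCA (in 1.55% of all windows), TATAAA (12.4%) or CAGATG (14.4%) on either strand. The RefSeq start of Chrm4 lies 5060 bases before the exon given in the table.

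Every receptor gene was detected in all 84 libraries and passed the filter on low counts. Levels between genes are compared as CPM per kilobase of exon. For Chrm4 and Chrm5 that is the 1 exon given above, so their places in the order rest on that exon alone. Chrm1, the Gq-coupled receptor of excitatory neurons, was highest at a median of 35.8 CPM per kilobase. Chrm4 and Chrnb2 followed at 15.1 and 14.9. These 2 could not be ordered, since Chrm4 was the higher in 41 of 84 animals. Chrm3 came next at 6.98, Chrna4 at 5.90 and Chrna7 at 4.97, with Chrnb2 above Chrm3 in 84 of 84 animals, Chrm3 above Chrna4 in 53 and Chrna4 above Chrna7 in 58. Chrm2 was at 2.30, Chrm5 at 1.03, Chrna5 at 0.401 and Chrna3 at 0.220. The ranges of every pair of neighbours in this order overlapped.

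**Figure D1:**
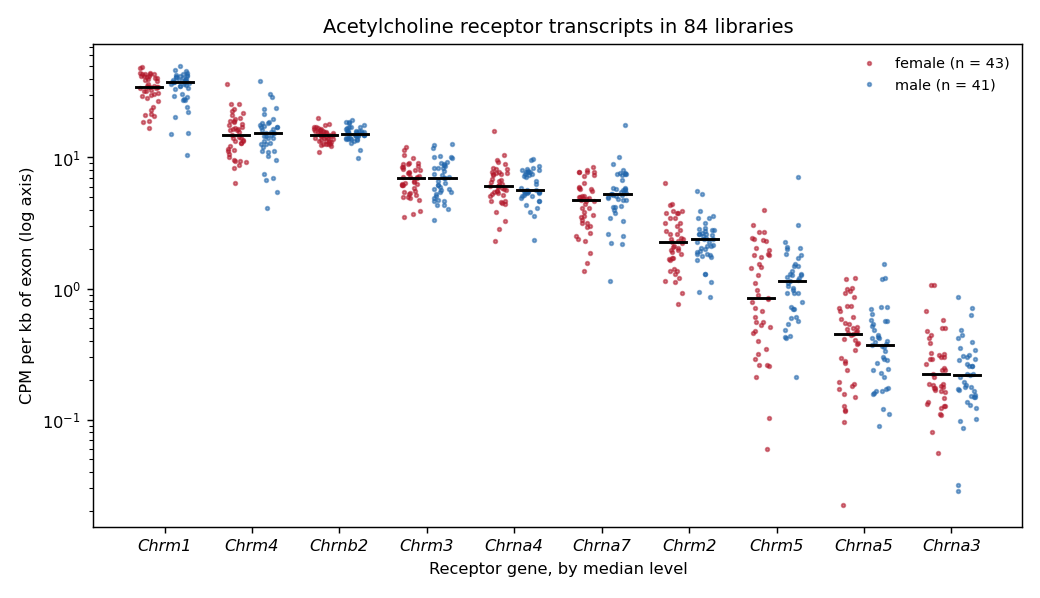
Level of each receptor gene in CPM per kilobase of exon (log axis) in 43 female and 41 male libraries, ordered by median. Each point is 1 animal and each bar the median of a sex. Chrm1 stands highest at a median of 35.8, Chrm4 and Chrnb2 lie together at 15.1 and 14.9, and Chrm5, Chrna5 and Chrna3 spread the widest.

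Within a gene, levels are given as CPM. Among the Gq-coupled receptors, Chrm1 had a lowest, median and highest level of 109, 223.3 and 318 CPM in females and of 67.6, 243 and 324 CPM in males. Chrm3 had 15.7, 31.6 and 54.2 CPM in females and 15.2, 31.4 and 56.7 CPM in males. Chrm5 had 0.0956, 1.35 and 6.31 CPM in females and 0.340, 1.81 and 11.3 CPM in males. The sexes overlapped for all 3 genes, and the highest Chrm5 level, in male replicate 18, stood well above the next, at 6.31.

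Of the Gi-coupled receptors, Chrm2 had 4.65, 13.8 and 38.4 CPM in females and 5.24, 14.4 and 33.4 CPM in males. Chrm4 had 9.24, 21.4 and 52.4 CPM in females and 5.95, 21.96 and 55.4 CPM in males. The ranges of females and males overlapped for both. The highest Chrm4 level was in male replicate 28, the library in which every striatal marker peaked, and the lowest was in male replicate 15, which also held the lowest Chrm1 level.

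The nicotinic subunits of the high-affinity receptor differed in spread. Chrna4 had 11.4, 29.8 and 78.6 CPM in females and 11.5, 27.7 and 48.3 CPM in males. Chrnb2 had 59.6, 79.8 and 107 CPM in females and 53.3, 81.8 and 105 CPM in males. For both, the highest level was in female replicate 15, the library rich in dopamine neuron genes, and for Chrna4 it stood apart from the next highest, at 51.5 CPM. Chrna7 had 2.84, 9.87 and 17.8 CPM in females and 2.39, 11.1 and 37.2 CPM in males. Its highest level was in male replicate 18, as for Chrm5.

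Chrna5, the accessory subunit, had 0.0613, 1.23 and 3.32 CPM in females and 0.246, 1.01 and 4.18 CPM in males. Chrna3 had 0.173, 0.703 and 3.33 CPM in females and 0.0893, 0.681 and 2.69 CPM in males. Both were low in every animal, with medians of 34.5 and 21.5 counts per library, so counting error adds to their spread. The lowest Chrna5 level was 2 counts, in female replicate 19, which had the lowest cortical and the highest cholinergic marker score of all libraries.

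The variation of 9 of the 10 genes between animals was above the middle of genes of like abundance. The biological coefficient of variation, edgeR's estimate of relative spread beyond counting error, was 0.280 for Chrm1, 0.411 for Chrm2, 0.381 for Chrm4 and 0.431 for Chrna7. These stood at percentiles 89.9, 89.4, 91.4 and 86.9 of the genes of like level. Chrm3, Chrm5 and Chrna4 lay between percentiles 87.4 and 88.2, Chrna5 at 79.1 and Chrna3 at 72.0. Chrnb2 was the exception, with a coefficient of 0.125 at percentile 29.3. The gene for the common beta subunit thus varied less from animal to animal than its partner Chrna4 (0.309) in these libraries, a difference that was not tested.

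No receptor gene followed ethanol preference at the adjusted threshold of 0.05. Slopes are log2 changes in expression per 0.5 rise in preference ± SE, from edgeR's quasi-likelihood test with Benjamini-Hochberg adjustment over 16320 genes. Over all 84 animals with sex as a term, the 10 slopes for mean preference ran from -0.23 ± 0.36 for Chrm5 to 0.26 ± 0.31 for Chrna3. Of these, 4 were above 0 and 6 below, with a median of -0.072 against -0.0016 over all genes. None of the 10 was called, and the share called over all genes was 0%, with 643 genes at an unadjusted p under 0.05 and none of the receptors among them. The narrowest interval was that of Chrnb2, with a slope of -0.064 and a 95% interval of -0.18 to 0.054, and for Chrm1 the interval was -0.24 to 0.31. That of Chrna5, from -0.61 to 0.77, was wide.

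In females, the largest slope in size belonged to Chrm2. In the 10 females with the lowest mean preference (0.0435 to 0.136), Chrm2 had a lowest, median and highest level of 7.83, 19.2 and 38.4 CPM. In the 10 with the highest (0.401 to 0.759) these were 5.62, 12.0 and 26.3 CPM. The 2 sets overlapped, with the lower-preferring females the higher at the median. The slope over all 43 females was -0.56 ± 0.29, with p = 0.0588 and an adjusted p of 0.758 in edgeR's test. With the striatal and cortical marker scores described below in the fit, it was -0.086 ± 0.21. The cholinergic score was not in that fit, and the cause of the change was not tested. The slope of Chrm4 in females was -0.38 ± 0.23 (adjusted p = 0.872). Of the other 8 genes, Chrna3 had the largest slope in females, 0.44 ± 0.41. None of the 10 genes was called in females or had an unadjusted p under 0.05. Over all genes 0% were called, while 1135 genes had an unadjusted p under 0.05.

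In the 10 males with the lowest mean preference Chrm2 had 10.7, 14.3 and 17.6 CPM, and in the 10 with the highest 5.24, 14.8 and 21.8 CPM. The medians lay close together and the higher-preferring males enclosed the range of the others. Slopes in the 41 males were 0.26 ± 0.28 for Chrm2 and 0.21 ± 0.34 for Chrm4, and those of all 10 genes ran from -0.23 ± 0.47 for Chrm5 to 0.34 ± 0.52 for Chrna5. None was called, none had an unadjusted p under 0.05, and over all genes 0% were called and 270 had an unadjusted p under 0.05. The difference between the sexes was tested by an interaction term. For Chrm2 it was 0.82 ± 0.41 (male minus female), with p = 0.0499 and an adjusted p of 0.999, and for Chrm4 0.59 ± 0.41 (adjusted p = 0.999). Chrm2 was the 1 receptor gene of 10 under an unadjusted 0.05, as were 529 of all genes, and 0% of genes were called.

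**Figure D2:**
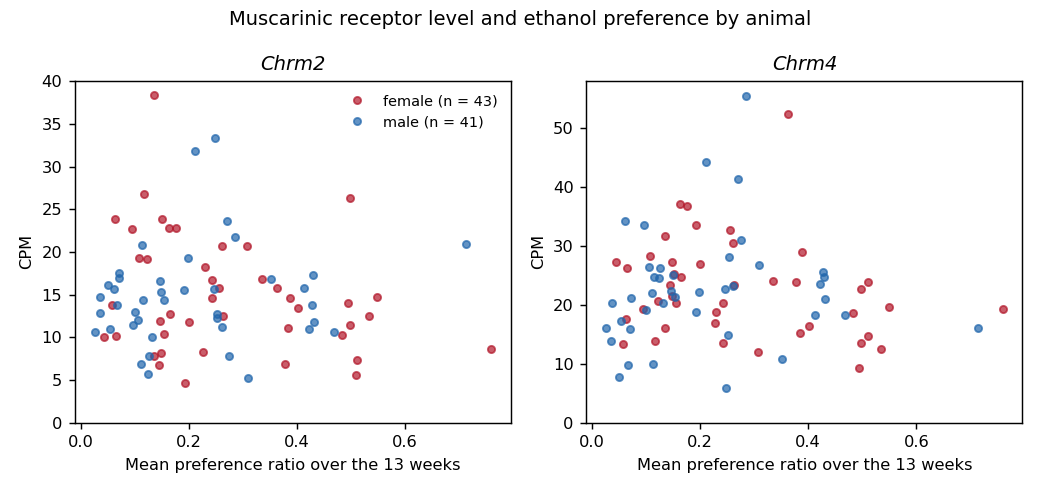
Level of Chrm2 (left) and Chrm4 (right) in CPM against mean preference ratio over the 13 weeks, with 1 point per animal for 43 females and 41 males. In females Chrm2 falls from a median of 19.2 CPM in the 10 lowest-preferring animals to 12.0 in the 10 highest, with wide overlap, and in males the medians are 14.3 and 14.8.

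**Figure D3:**
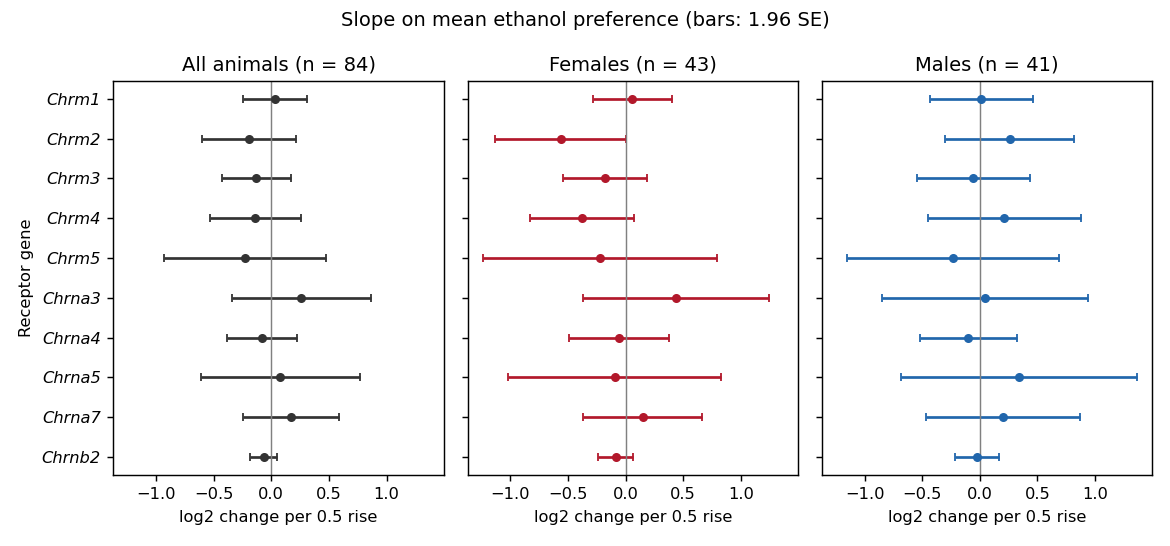
Slope of each receptor gene on mean preference (log2 change per 0.5 rise) in all animals, in females and in males, with bars of 1.96 SE. Every bar crosses 0 and none of the slopes passed an adjusted p of 0.05.

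Preference at the start and at the end of the trial gave the same count. For week 1 preference in all animals, slopes ran from -0.43 ± 0.34 for Chrm5 to 0.054 ± 0.21 for Chrna7, and no receptor gene was called against 0.0306% of all genes. For week 13, slopes ran from -0.19 ± 0.16 for Chrm2 to 0.089 ± 0.11 for Chrm1, and no receptor gene was called against 0% of all genes. No receptor gene had an unadjusted p under 0.05 in either week, while 531 and 979 of all genes had. In all 6 preference comparisons limma-voom and DESeq2 also called none of the 10. Within the 4 runs, the mean preference slope of Chrm2 was -0.17 ± 0.66, -0.96 ± 0.37, -0.42 ± 0.52 and 0.18 ± 0.26, and that of Chrm3 changed sign between runs, with 0.61 ± 0.33 in the first and -0.61 ± 0.25 in the second. The slope of Chrna4 over all animals was -0.080 ± 0.16 with and 0.0028 ± 0.15 without female replicate 15.

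No receptor gene differed between the sexes at the adjusted threshold. The largest difference was in Chrna7, which was higher in males by 0.24 ± 0.14 on the log2 scale (p = 0.0789, adjusted p = 0.986), from medians of 9.87 CPM in females and 11.1 in males. The other 9 differences lay between -0.18 ± 0.20 for Chrna3 and 0.12 ± 0.24 for Chrm5. None of the 10 was under an unadjusted 0.05, whereas 622 of all genes were and 0.0919% were called, and limma-voom and DESeq2 also called none of the 10. The run of sample-sheet numbers called none of the 10 in edgeR's test, against 21.7% of all genes. Chrm2 (p = 0.0211, adjusted p = 0.0767) and Chrna5 (p = 0.032, adjusted p = 0.0997) were under an unadjusted 0.05, and limma-voom called these 2. Median Chrm2 was 10.6 CPM in the first run and 14.7, 14.8 and 15.6 in the others, and median Chrna5 was 1.26, 1.22, 0.767 and 0.776 CPM.

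Receptor levels were also compared with marker genes of the tissues that border the nucleus. For each library a score was taken as the mean z-score of log2 CPM over a marker list, scaled to an SD of 1: 13 striatal medium spiny neuron genes, 13 cortical and basolateral excitatory neuron genes and 10 basal forebrain cholinergic neuron genes. None of the receptor genes is in a list. Ppp1r1b of the striatal list and Isl1 of the cholinergic list are also in the marker list of the labelled nucleus. These scores thus do not mark bordering tissue alone. In such bulk tissue, more cells of a type and more RNA per cell cannot be told apart. The scores were not independent of each other: striatal and cholinergic scores had r = 0.679 (rho = 0.702), and cortical and cholinergic scores r = -0.723 (rho = -0.630), each with a permutation p of 1e-05, the smallest that 100000 permutations can give, and an adjusted p of 1.5e-05 over 3 relations. Leaving out the 2 most distant animals gave r = 0.689 and -0.689. Values of r in the 4 runs were 0.561 to 0.867 for the first pair and -0.768 to -0.622 for the second.

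With each score fitted alone, 7 receptor genes were called for the cortical score. Chrm1 rose by 0.32 ± 0.03 on the log2 scale per SD of the score (adjusted p = 2.17e-15), Chrm3 by 0.24 ± 0.04 (5.17e-07), Chrna4 by 0.14 ± 0.05 (0.00652) and Chrna5 by 0.63 ± 0.10 (9.85e-08). Chrm2 fell by 0.27 ± 0.06 (2.46e-05), Chrna3 by 0.36 ± 0.09 (0.00108) and Chrm5 by 0.39 ± 0.14 (0.0172). Of these 7 of 10, 4 were higher and 3 lower, where 46% of all genes were called, 22.9% higher and 23.1% lower. With all 3 scores in 1 fit only 3 of them were called, Chrm1, Chrm3 and Chrna4, and the slope of Chrna5 was 0.36 ± 0.14 (adjusted p = 0.0682). The median slope of the 10 was 0.087 against -0.0057 over all genes. Within the 4 runs, Chrm1 slopes were 0.31, 0.44, 0.29 and 0.33 and Chrna5 slopes 0.19, 0.63, 0.73 and 0.71. Slopes of the other genes called were uneven too. Chrm3 gave 0.37, 0.07, 0.27 and 0.26, and Chrna4 0.21, 0.05, 0.09 and 0.20. Chrm2 gave -0.40, -0.47, -0.21 and -0.02, Chrna3 -0.14, -0.71, -0.11 and -0.32, and Chrm5 -0.80, -0.47, 0.09 and -0.65. With run as a covariate Chrm5 was no longer called, at -0.34 (adjusted p = 0.0539).

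For the striatal score, also fitted alone, the 2 genes called were the Gi-coupled receptors. Chrm2 rose by 0.37 ± 0.05 per SD (adjusted p = 4.15e-08) and Chrm4 by 0.23 ± 0.05 (8.08e-05), in edgeR's test. This count of 2 in 10, both higher, is below the share called over all genes, 31.2%, of which 14.5% were higher and 16.8% lower. With all 3 scores in 1 fit Chrm2 was not called (0.036 ± 0.06, adjusted p = 0.701), and Chrm4 was. The other 8 slopes ran from -0.16 ± 0.12 for Chrm5 to 0.09 ± 0.05 for Chrm3, and the median of the 10 was -0.013 against -0.0041 over all genes. Within runs, Chrm2 slopes were 0.62, 0.17, 0.45 and 0.36 and Chrm4 slopes 0.04, 0.40, 0.19 and 0.37. Without male replicate 28, which has the highest Chrm4 level, the Chrm4 slope was 0.21 ± 0.05 (adjusted p = 0.00108).

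Among the receptor genes, the smallest p for the cholinergic score fitted alone was that of Chrm2, the muscarinic autoreceptor of cholinergic cells. Chrm2 rose by 0.49 ± 0.04 per SD, a 1.41-fold change (adjusted p = 2.21e-19), and Chrna3 rose by 0.34 ± 0.09 (0.00173). Chrm1 fell by 0.26 ± 0.04 (1.11e-08) and Chrna5 by 0.47 ± 0.10 (7.56e-05). In all 4 of 10 receptor genes were called, 2 higher and 2 lower, a share near that of all genes, 46.2%, 22.5% higher and 23.7% lower. The median slope of the 10 was -0.0098 against -0.0016 over all genes. Chrm2 had like slopes in the 4 runs, 0.57, 0.47, 0.45 and 0.45. Those of Chrm1 were -0.25, -0.22, -0.29 and -0.27. Chrna5 slopes in the runs were -0.29, -0.60, -0.73 and -0.0060. Chrna3 slopes were also uneven, at 0.07, 0.45, 0.14 and 0.35. Chrnb2 was called for none of the 3 scores, with slopes of 0.0053, -0.031 and 0.031, each with an SE of 0.02.

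**Figure D4:**
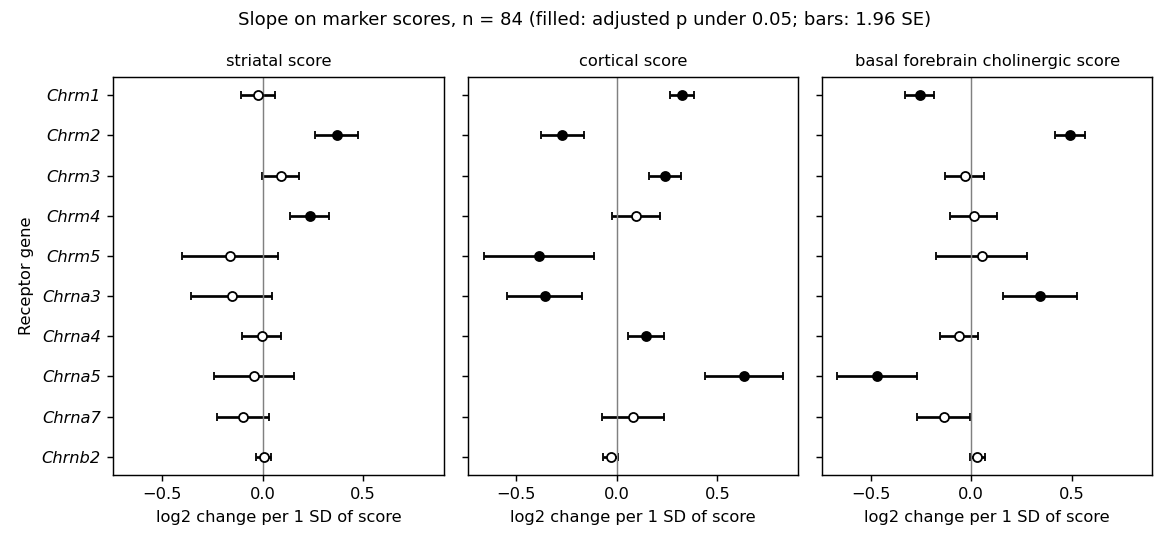
Slope of each receptor gene (log2 change per SD) on the striatal, cortical and basal forebrain cholinergic score over 84 animals, with bars of 1.96 SE. Filled points have an adjusted p under 0.05: 2 for the striatal, 7 for the cortical and 4 for the cholinergic score.

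**Figure D5:**
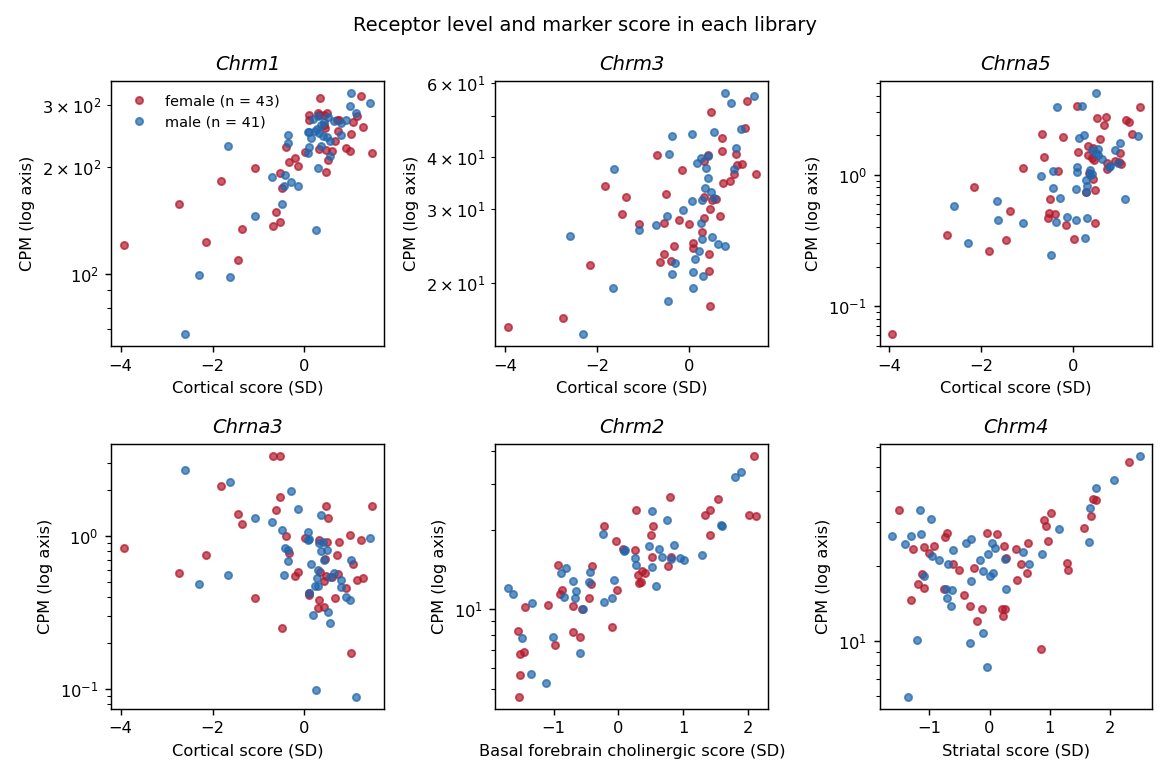
Level of 6 receptor genes in CPM (log axis) against a marker score in SD, 1 point per library, females and males in separate colours. Chrm2 rises along the cholinergic score by 1.41-fold per SD, and Chrna5 along the cortical score by 1.55-fold per SD with that score fitted alone, which lost its call with all 3 scores in 1 fit. The library with the lowest cortical score, female replicate 19, has the lowest Chrna5 level.

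Because the scores were related, all 3 were also put in 1 fit, an analysis added after the data were seen. Chrm4 then rose with the striatal score by 0.56 ± 0.07 (adjusted p = 1.42e-10) and fell with the cholinergic score by 0.47 ± 0.09 (8.46e-05). Chrm2 kept its slope on the cholinergic score, 0.58 ± 0.08 (1.19e-08), whereas that on the striatal score was 0.036 ± 0.06 and that on the cortical score turned to 0.15 ± 0.06 (0.0698). Chrm1 rose with the striatal score by 0.26 ± 0.03 (2.08e-09) and with the cortical score by 0.17 ± 0.03, and fell with the cholinergic score by 0.34 ± 0.05. Chrm3 rose with the cortical score by 0.44 ± 0.06 (3.55e-09) and with the cholinergic score by 0.28 ± 0.07 (0.0028). Chrna3 rose with the cholinergic score by 0.72 ± 0.18 (0.0014) and fell with the striatal score by 0.56 ± 0.12 (0.000187), while its cortical slope turned to 0.058 ± 0.14. Chrna5 rose with the striatal score by 0.33 ± 0.12 (0.0369) and fell with the cholinergic score by 0.49 ± 0.17 (0.0367), and its cortical slope was no longer called. In this fit 4, 3 and 6 receptor genes were called for the striatal, cortical and cholinergic score, against 21.9%, 18.9% and 19.6% of all genes.

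Some libraries at the ends of a gene's range also lay near the ends of these scores, and others did not. Female replicate 1, with the highest Chrm2 level, ranked 2 of 84 in the cholinergic score, and female replicate 9, with the lowest, ranked 81. Male replicate 15, with the lowest Chrm1 and Chrm4 levels, ranked 82 in the cortical and 81 in the striatal score but 4 in the cholinergic score. Male replicate 18, with the highest Chrm5 and Chrna7 levels, had the lowest striatal and cholinergic scores of all, but ranked 47 in the cortical score. Female replicate 42, with the lowest Chrm5 level, had the highest cortical score. For Chrnb2 neither library was at an end of the striatal, cortical or cholinergic score. Female replicate 15, with its highest level, ranked 50, 71 and 18, and male replicate 39, with its lowest, ranked 42, 45 and 39. Male replicate 14, with the highest Chrna5 level, ranked 49, 25 and 67.

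Receptor genes were also compared with each other over the 84 animals by the correlation of log2 CPM, in 45 pairs with permutation p-values adjusted over all of them. In 29 pairs r was above 0, the median was 0.164, and 19 pairs had an adjusted p under 0.05, 16 positive and 3 negative. No share over all gene pairs is given here, so these counts do not set the receptor genes apart from other genes. The strongest relation was between Chrm5 and Chrna7 (r = 0.677, rho = 0.650, adjusted permutation p = 5.6e-05), which fell to 0.611 when the 2 most distant animals were left out and ran from 0.653 to 0.800 over the 4 runs. Chrm1 and Chrm4 had r = 0.658 (rho = 0.626, adjusted permutation p = 5.6e-05), but -0.012 to 0.728 within runs. The strongest negative relation was between Chrm1 and Chrm2 (r = -0.479, rho = -0.387, adjusted permutation p = 5.6e-05), with -0.638 to -0.145 within runs and -0.420 without the 2 farthest animals. The neighbours Chrna3 and Chrna5 had r = -0.229 (rho = -0.298, adjusted permutation p = 0.068 for r and 0.017 for rho), from -0.471 to 0.176 within runs. Chrna4 and Chrnb2, the subunits of 1 receptor, had r = 0.229 (rho = 0.133).

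The genes whose log2 CPM was most like each receptor gene over the 84 animals were sought among 13116 others, as a description without a test. For Chrm1 these were Kalrn (r = 0.950), Ptk2b (0.941) and Synpo (0.938), and for Chrm2 Rcan2 (0.876), Plcb4 (0.856) and Chat (0.855). Plcb4 encodes a phospholipase C of the Gq pathway, and Chat is in the cholinergic score. Chrm4 was most like Bcl11b (0.868), a transcription factor of striatal medium spiny neurons, Sez6 (0.845) and Akap1 (0.833). Genes like Chrna5 included 9130024F11Rik (0.850) and Nr4a2 (0.815). Chrm5 was most like Rxra (0.832), Adra1a (0.760) and Fgfr1 (0.760), and Chrna7 most like Atp2b3 (0.901), Lmbrd2 (0.898) and Atm (0.897). The highest r was lower for Chrnb2 (Pcdhgc4, 0.766), Chrm3 (Tbc1d30, 0.753), Chrna4 (Adra1b, 0.653) and Chrna3 (Rspo1, 0.590). Rspo1 is in the cortical score, along which Chrna3 fell when that score was fitted alone. With sex and run removed, r was 0.906 for Chrm4 and Bcl11b, 0.834 for Chrm2 and Chat, and 0.566 for Chrna3 and Rspo1.

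Other genes of the pathway were taken as a list of 54, of which 48 passed the filter: nicotinic subunits, the acetylcholine cycle, receptor chaperones and Ly6 proteins, and signalling partners on the Gq and Gi sides. None was called for preference in any comparison or for sex. In females 6 of the 48 had an unadjusted p under 0.05, as had 6.95% of all genes. The smallest p was that of Chrnb4, a nicotinic subunit that partners Chrna3, with a slope of 1.23 ± 0.43 (adjusted p = 0.477). Ly6e, a Ly6 protein that modulates nicotinic receptors, followed with 0.44 ± 0.16 (0.482), and Slc18a3, the vesicular acetylcholine transporter, with -2.11 ± 0.93 (0.62). Chat (-1.96 ± 0.95) and Slc5a7 (-1.76 ± 0.82) were also among the 6. For week 1 preference the smallest p was that of Ly6g6e, another Ly6 protein, with 1.11 ± 0.31 (adjusted p = 0.751), followed by Arrb2 with -0.12 ± 0.06 and Gnai2, a Gi subunit, with -0.11 ± 0.06. For week 13 these were Chrnb4 with 0.61 ± 0.26, Ache with -0.32 ± 0.14 and Ly6e with 0.20 ± 0.09, at adjusted p from 0.700 to 0.758. For mean preference in all animals they were Chrnb4 with 0.71 ± 0.33, Ly6g6e with 0.80 ± 0.42 and Chrnb3 with -0.86 ± 0.47, and the last was 0.10 ± 0.38 without female replicate 15. In males the smallest was that of Arrb2, a beta-arrestin, with -0.22 ± 0.08 (p = 0.0107), followed by Ly6g6e with 1.58 ± 0.75 and Ric3, a nicotinic receptor chaperone, with 0.12 ± 0.08. For the sex difference, the nicotinic subunit Chrnb3 had -0.97 ± 0.31 (male minus female, p = 0.00218, adjusted p = 0.84), but -0.32 ± 0.23 without female replicate 15 (p = 0.176). Colq, the collagen tail of the cholinesterase, followed with -0.69 ± 0.30 and Gnai1 with 0.087 ± 0.05. For the interaction of sex and preference the smallest p belonged to Arrb2, with -0.30 ± 0.13, Slc5a7, the choline transporter, with 2.78 ± 1.20 and Ly6e with -0.54 ± 0.24, each with an adjusted p of 0.999.

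Of the same 48 genes, 32 were called for the striatal score (18 higher, 14 lower), against 31.2% of all genes. For the cortical score 33 were called (18 higher, 15 lower), against 46% of all genes, and for the cholinergic score 37 (18 higher, 19 lower), against 46.2%. The 32 include Adcy5 and the 37 include Chat, Slc5a7 and Slc18a3. These genes are part of the score they were tested against, so their calls carry no information. All 8 genes of the acetylcholine cycle fell with the cortical and rose with the cholinergic score, of which Chat, Slc5a7 and Slc18a3 are in that score. Of the genes that are not, Ache, the enzyme that breaks down acetylcholine, fell with the cortical score by 0.43 ± 0.03 (adjusted p = 2.27e-18). Kcnj9 and Kcnj3, subunits of the potassium channel that Gi-coupled muscarinic receptors open, rose with the cortical score by 0.34 ± 0.02 (2.18e-21) and 0.36 ± 0.03 (1.86e-18). Since so many passed, only those with the smallest p are named. For the striatal score these were Adcy5, which is in that score, Prima1, the membrane anchor of Ache, with 0.86 ± 0.09 (1.38e-12), and Gnai1, a Gi subunit, with -0.17 ± 0.02 (4.42e-12). For run, 10 of the 48 were called against 21.7% of all genes.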

How the data were processed

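RNA from 84 libraries was counted per gene, and the deposited count table holds raw counts with no normalization by the authors. Per the submitters' processing notes, FastQC, STAR and featureCounts 1.6.0 of Subread were used with builds GRCm38 and mm10, and DESeq2 is also named. No annotation release or strand setting is given in the sources used here. Of the table's columns, 8 belong to no animal (3 hold undetermined reads, 5 are empty) and were left out.

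The counts were fitted here with edgeR 4.0.16 in R 4.3.3 (quasi-likelihood test, TMM scaling, robust dispersion). Genes passed with filterByExpr (minimum count 10, minimum total 15), leaving 16320, over which p-values were adjusted by Benjamini-Hochberg. Sex was a term in each fit over both sexes. Preference slopes are per 0.5 of the ratio. Log2 CPM used a prior count of 2. Alternatives used limma 3.58.1 (voom) and DESeq2 1.42.0. Depth was 24118965 to 42036566 counts per library. Family and sequencing lane of each animal were not known and not modelled, so p-values take animals as independent. The edgeR fit of mean preference in all animals was tested on simulated counts, with animals drawn as independent. Of 100 genes given a log2 slope of 0.5 in size 71 were called, and of 100 given a slope of 1, 87. Among the unchanged genes 4 were called.

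Named genes were the 10 receptor genes always and, of other cholinergic genes, those with an adjusted p under 0.05 and the 3 with the smallest p in each comparison. For the marker scores and run, where many passed, the text names those with the smallest p or gives counts only. The 3 most similar genes (mean log2 CPM of at least 1) were sought for each receptor gene, and the text gives only the first for 4 of them. Of these genes, 1 is not reported here. Genes and lists were chosen with earlier results of these data known.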

Additional observations from a re-analysis of the deposited data

How the results depend on the processing

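The 13 called slopes on the marker scores had 104 alternatives between them (other size factors, no filter, limma-voom, run as a covariate, 1 library left out, and all 3 scores in 1 fit). Of these, 98 kept direction and call, 4 lost the call and 2 reversed. The fit of all 3 scores, the fits within runs and the fits without female replicate 15 were chosen after seeing the data. With all 3 scores in 1 fit, Chrm2 on the cortical score turned to 0.15 and Chrna3 to 0.058, and the calls of Chrm5 (-0.49) and Chrna5 (0.36) on the cortical and of Chrm2 (0.036) on the striatal score were lost. In that fit 4 uncalled slopes turned and were then called: on the cholinergic score Chrm3 (0.28, adjusted p = 0.0028) and Chrm4 (-0.47, 8.46e-05), and on the striatal score Chrm1 (0.26, 2.08e-09) and Chrna5 (0.33, 0.0369). Chrna3 on the striatal score (-0.56, 0.000187) gained a call without turning. Others turned and stayed uncalled: Chrm5 (-0.052) and Chrna4 (0.16) on the cholinergic, Chrm4 (-0.050) and Chrna7 (-0.063) on the cortical, and Chrna7 (0.027) and Chrnb2 (-0.030) on the striatal score. It called 3077 genes for the cortical and 3193 for the cholinergic score, with 3 receptor genes for the cortical and 4 for the striatal score. Run as a covariate ended the call of Chrm5 on the cortical score (-0.34), and brought in Chrna7 on the cholinergic (-0.17, adjusted p = 0.0458) and Chrm3 on the striatal score (0.12, adjusted p = 0.0489). Limma-voom brought in Chrm4 on the cortical score (0.15, adjusted p = 0.0375) and called 2 receptor genes for run.

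No alternative called a receptor gene for preference or sex. Of 662 alternatives of the 87 uncalled slopes, 595 kept direction and stayed uncalled, 4 gained a call in the same direction and 63 changed sign, of which 4 were called after the change. Under limma-voom the slopes that changed sign were Chrm4 on the cholinergic score (-0.056), in females Chrna4 (0.017), Chrna5 (0.19) and Chrna7 (-0.043), in males Chrna3 (-0.33), in the interaction Chrm5 (0.61) and Chrna5 (-0.047), between the sexes Chrm2 (0.011), in week 1 Chrm4 (-0.017) and Chrna5 (0.10), and in week 13 Chrna3 (-0.026) and Chrna5 (0.044). With no filter it was Chrm5 in the interaction (0.0053). With ranks of preference they were Chrm4 in all animals (0.074), Chrna5 in females (0.028), Chrm3 (0.010) and Chrna3 (-0.077) in males, Chrm3 (0.062) and Chrna5 (0.28) in week 1, and Chrm4 (0.013) and Chrna3 (-0.0043) in week 13. With run as a covariate they were Chrm5 on the cholinergic score (-0.040), Chrm1 (0.0068) and Chrna4 (0.0034) on the striatal score, Chrna5 in all animals (-0.089), Chrm1 (-0.017) and Chrm3 (0.020) in males, Chrm5 in the interaction (0.17), Chrm4 between the sexes (0.0060), Chrm1 (-0.050) and Chrm4 (-0.076) in week 1, and Chrna3 in week 13 (-0.023). With the striatal and cortical scores as covariates they were Chrm1 (-0.080) and Chrna5 (-0.048) in all animals, Chrm1 in females (-0.069), and Chrm1 (-0.050) and Chrna3 (-0.11) in males. Without the 2 animals farthest from the median they were Chrna7 in females (-0.16), Chrm3 (0.15), Chrna3 (-0.47) and Chrna4 (0.015) in males, Chrm1 in the interaction (0.13), and Chrm2 (-0.12), Chrm3 (0.039), Chrna4 (0.067), Chrna5 (0.27) and Chrnb2 (0.0091) in week 1. Without female replicate 15 they were Chrna4 in all animals (0.0028), in females (0.087), in week 1 (0.030) and on the striatal score (0.0067), Chrna5 in week 1 (0.033), and Chrm2 between the sexes (0.0067).

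Over all genes, fits with no filter called 53 genes for mean preference in all animals, 23 in females, 16 in males, 21 in the interaction, 69 in week 1, 71 in week 13 and 74 between the sexes. Mean intake in place of preference called 8. Week 1 calls were 0 with limma-voom, 2 with ranks and 0 without the 2 farthest animals. DESeq2 called 2 genes in males and 1 in the interaction, and run as a covariate called 1 in the interaction. The cause of these changes was not tested. No paired analysis was possible because the replicate numbers only follow the order of listing. Chrna3, Chrna5 and Chrm5 had medians of 21.5, 34.5 and 52.5 counts per library, which limits the precision of their slopes.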
